A study of Mus musculus with 22 samples.

Results

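Cell cycle and proliferation genes were examined as a group of 40 listed mouse genes in the aorta: cyclins, cyclin-dependent kinases (CDKs) and their inhibitors, DNA replication genes, and genes of mitosis. A gene was included when a probe set of the array carried its symbol, or an alias of it, and no other symbol. Of the 40 genes, 39 had such a probe set, among 18193 genes in all with a probe set of 1 symbol; Ccnb1 had none and has no value here. Of these 39 genes, 27 passed the filter on low signal and were tested, among 10260 tested genes. The filter asked for a log2 signal over 4 on at least 3 of the 22 arrays.

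Gene expression was measured on Affymetrix arrays in aortas of ovariectomised C57BL/6 female mice aged 2.5 to 4.5 months. The mice lacked estrogen receptor alpha (ERaKO), lacked estrogen receptor beta (ERbKO) or were wild-type (WT) littermates of the knockouts. Each carried a pellet of 17beta-estradiol (E2) or placebo for 7 to 8 days, so that loss of the ovaries was shared by all groups. There were 3 arrays each of ERaKO E2, ERaKO placebo, ERbKO E2 and ERbKO placebo, and 5 arrays each of WT E2 and WT placebo. Each array held 5 ug of total RNA of 1 aorta, not pooled. How precise a value is depends on these small numbers of arrays. The labels do not say how the knockout alleles were made.

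A dividing cell passes from G1 through DNA replication to mitosis, driven by cyclins that activate CDKs and held back by CDK inhibitors. Many genes of replication and mitosis are transcribed only in dividing cells, and their transcripts serve as proliferation markers. G1 cyclins and CDK inhibitors are also made in resting cells. Smooth muscle and endothelial cells of a healthy adult artery divide rarely.

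The promoters of the 4 mitotic genes with the widest range of signal over the arrays are shown because genes of mitosis often share 2 elements, the CCAAT box and the cell cycle genes homology region, here searched as TTTGAA. Each line runs 5′ to 3′ on the strand of the gene, from 250 bases before to 50 bases after its start, from RefSeq on build GRCm38.p6. The windows are chr7:135716330-135716629 (minus strand) for Mki67, chr11:99024140-99024439 (minus strand) for Top2a, chr2:164769679-164769978 (plus strand) for Ube2c and chr2:119618048-119618347 (plus strand) for Nusap1. Capitals mark CCAAT or its reverse complement ATTGG, and TTTGAA or its reverse complement TTCAAA.
Mki67: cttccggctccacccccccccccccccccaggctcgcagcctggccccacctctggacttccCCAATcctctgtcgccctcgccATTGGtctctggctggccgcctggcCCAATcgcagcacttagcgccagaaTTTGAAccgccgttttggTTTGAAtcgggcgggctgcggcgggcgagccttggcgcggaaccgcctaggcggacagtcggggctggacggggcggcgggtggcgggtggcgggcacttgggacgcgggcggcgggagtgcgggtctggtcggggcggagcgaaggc
Top2a: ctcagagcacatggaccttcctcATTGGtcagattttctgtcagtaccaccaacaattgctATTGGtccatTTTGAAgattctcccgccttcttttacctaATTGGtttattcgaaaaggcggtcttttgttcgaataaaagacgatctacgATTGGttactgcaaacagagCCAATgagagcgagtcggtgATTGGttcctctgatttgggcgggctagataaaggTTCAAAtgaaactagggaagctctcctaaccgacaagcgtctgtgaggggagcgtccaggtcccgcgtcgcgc
Ube2c: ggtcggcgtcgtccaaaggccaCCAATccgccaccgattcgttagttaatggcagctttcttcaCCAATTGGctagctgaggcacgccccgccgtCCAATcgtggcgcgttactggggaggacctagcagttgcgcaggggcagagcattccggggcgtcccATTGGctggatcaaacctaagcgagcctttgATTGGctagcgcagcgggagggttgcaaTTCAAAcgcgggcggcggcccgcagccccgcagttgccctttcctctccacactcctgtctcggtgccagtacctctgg
Nusap1: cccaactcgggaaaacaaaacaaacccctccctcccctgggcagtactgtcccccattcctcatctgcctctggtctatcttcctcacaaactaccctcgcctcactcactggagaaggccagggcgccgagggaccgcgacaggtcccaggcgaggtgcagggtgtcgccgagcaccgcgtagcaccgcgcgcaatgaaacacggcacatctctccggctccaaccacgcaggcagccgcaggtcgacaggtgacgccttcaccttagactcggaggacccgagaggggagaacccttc
The Mki67 window held 3 matches to CCAAT and 2 to TTTGAA, the Top2a window 6 and 2, the Ube2c window 6 and 1, and the Nusap1 window 0 and 0. In Ube2c, 2 of the CCAAT matches overlap on opposite strands as CCAATTGG. Another motif searched, the E2F-like TTTNNCGC, had 0 matches in each of these windows.

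Over all 32851 windows of this length in the table, 37.4% held CCAAT on either strand, 17.9% held TTTGAA and 5.17% held TTTNNCGC. The members' 36 windows, of 32 of the 40 genes, held them in 69.4%, 30.6% and 22.2% of windows. A match is a description of the letters and not a site.

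1 array stood apart in these genes, that of WT placebo mouse 1. It had the highest signal of all 22 arrays for Mki67, Top2a, Rrm2, Cdc20, Kif11, Ccne2, Mcm2, Mcm3, Mcm4, Mcm5, Pcna, Ccna2, Ccnb2 and Birc5. The same array had a log2 signal of 10.85 for Rag1, which cuts DNA during lymphocyte development, and of 10.09 for the skeletal muscle actin gene Acta1. On the other 4 WT placebo arrays, Rag1 lay between 5.42 and 7.72 and Acta1 between 4.07 and 4.23. The main results that this array moves are given with and without it.

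Array medians lay between 3.26 and 3.50 on the log2 scale, and 18507 to 19384 probe sets per array were over 4. Esr1, which encodes estrogen receptor alpha, was lower in ERaKO than in WT by -3.49 ± 0.36 with placebo (SE, adjusted p = 1.35e-04 in limma) and by -4.14 ± 0.36 with E2 (adjusted p = 2.0e-06). Esr2, which encodes estrogen receptor beta, lay between 2.34 and 2.72 on all arrays and did not pass the filter, so it checks nothing about the ERbKO label. The smooth muscle myosin gene Myh11 lay between 12.19 and 13.77 on all arrays.

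How many of these genes gave a signal at all differed by role. All 4 CDK inhibitors, 8 of 9 G1 regulators and 9 of 10 DNA replication genes passed the filter, against 6 of the 16 mitotic genes and proliferation markers on the array. Of the 27 tested genes, 17 were over a log2 signal of 4 on all 22 arrays and 10 on some of them. Of the 12 others, 7 were never over 4: the transcription factor gene E2f1, the thymidylate synthase gene Tyms, the mitotic kinase genes Cdk1, Aurka and Plk1, the spindle checkpoint kinase gene Bub1, and Tpx2, which helps to build the spindle.

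Cdk1, the kinase that drives entry into mitosis, lay between 2.31 and 3.30 on the 22 arrays, with a median of 2.44. Ccna2, the cyclin A gene of S phase and G2, was over 4 on 1 array, with 4.13 in WT placebo mouse 1, and had a median of 2.92. Ccnb2, a mitotic cyclin, and Birc5, which encodes survivin, were likewise over 4 on that array alone, with 4.35 and 5.41. Bub1b, of the spindle checkpoint, was over 4 only in ERbKO placebo mouse 3, with 4.27. Aurkb, a kinase of chromosome segregation, was over 4 in ERaKO E2 mouse 3 and WT E2 mouse 5, with 4.50 and 4.24. The medians of these 12 genes lay between 2.12 and 3.47, which is under the filter value.

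**Figure D1:**
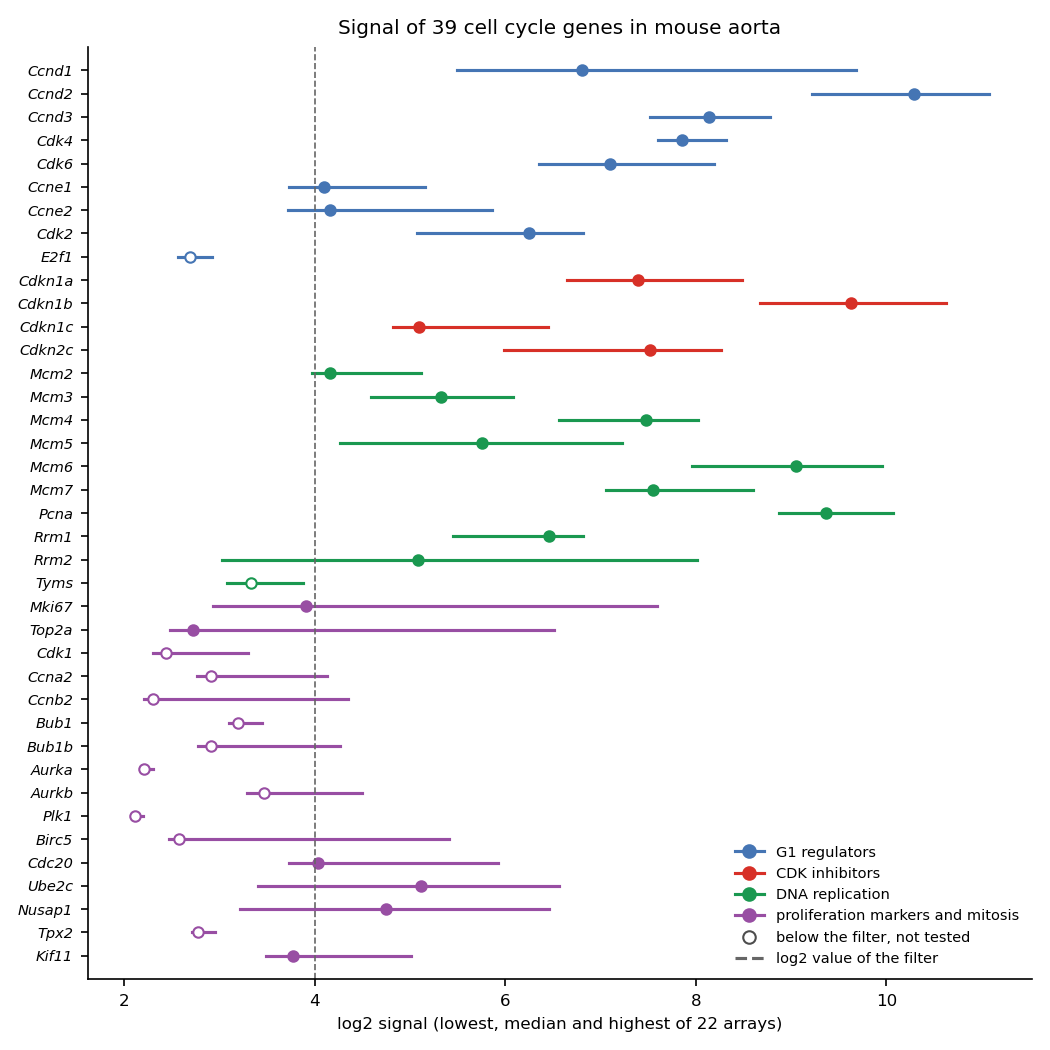
Each row is 1 gene, with a line for the lowest to the highest log2 signal of 22 arrays and a point for the median. Open points are the 12 genes under the filter, whose value of 4 is the dashed line; most mitotic genes lie left of it. Signals of different probe sets are not comparable in level between genes.

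The effect of E2 was asked within each genotype. In the fit without pairing, no member was called in any of the 3 comparisons at an adjusted p under 0.05 in limma. The smallest adjusted p of a member was 0.657 in ERaKO, 1.0 in ERbKO and 0.255 in WT. Over all 20410 tested probe sets, 0.0049% were called in ERaKO, 0.098% in ERbKO and 0.387% in WT. In the fit with a block for each pair of same-numbered E2 and placebo mice of 1 genotype, 340 probe sets were called in ERaKO (1 without the block), 35 in ERbKO (20 without it) and 347 in WT (79 without it). With the block, Cdkn2c was called in ERaKO, and no other member was called in any genotype. The counts below use an unadjusted p under 0.05 in the fit without the block, as a description.

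In ERaKO aortas 1 of 27 members was past it, Cdkn2c, which is 3.7% of members against 7.79% of all tested genes (6.32% lower and 1.47% higher). In ERbKO aortas 3 of 27 were past it, all lower with E2 (Mki67, Top2a and Rrm2), which is 11.1% against 2.6% (1.46% lower and 1.14% higher). In WT aortas 5 of 27 were past it, 4 lower (Mki67, Top2a, Rrm2 and Ccnd1) and Ube2c higher, which is 18.5% against 9.03% (3.76% lower and 5.26% higher). Top2a and Kif11 passed the filter on 4 placebo arrays and 0 E2 arrays, and Mki67 on 8 placebo arrays and 1 E2 array. These genes could pass only where they were high, so the counts support nothing by themselves. The median log2 difference of the 27 members was -0.08 in ERaKO, -0.09 in ERbKO and -0.04 in WT, against 0.01, -0.04 and 0.02 over all tested genes.

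**Figure D2:**
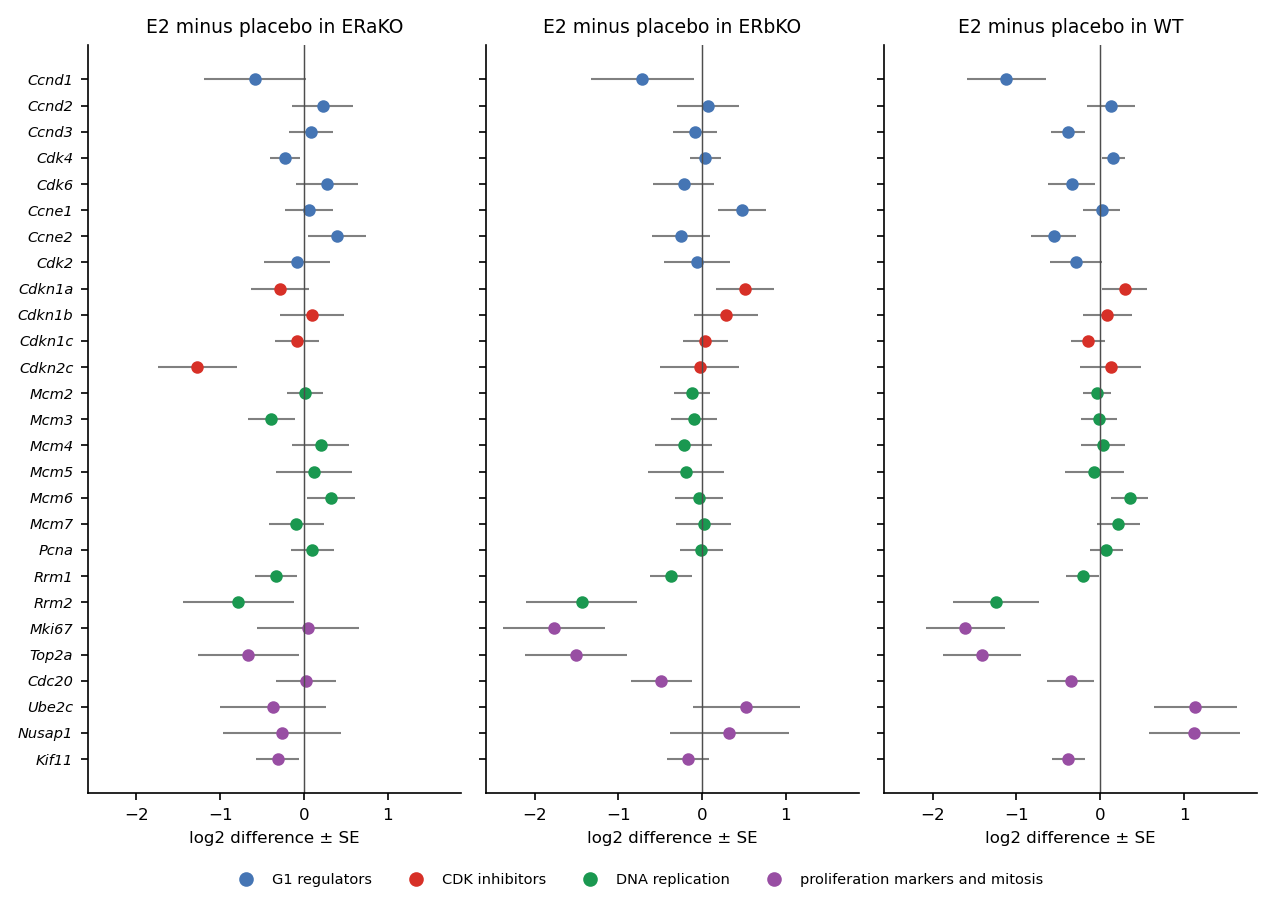
Each point is the log2 difference of E2 minus placebo for 1 of the 27 tested genes, with its SE from limma, in ERaKO (left), ERbKO (middle) and WT (right). Mki67, Top2a and Rrm2 lie lowest in ERbKO and in WT, and Cdkn2c lies lowest in ERaKO.

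Mki67, the standard marker gene of dividing cells, was near background with E2 and over it with placebo in ERbKO and WT aortas. The ERbKO E2 arrays had log2 signals of 2.93, 3.34 and 3.58, against 5.36, 5.13 and 4.66 on ERbKO placebo arrays. The 2 groups did not overlap. The WT E2 arrays had 3.25, 3.97, 3.48, 3.05 and 3.49, against 7.60, 4.41, 4.49, 4.95 and 3.85 on WT placebo arrays. All 5 WT E2 arrays were under the filter value and 4 of 5 WT placebo arrays were over it, and the groups overlapped by 1 array on each side. The ERaKO E2 arrays had 3.57, 3.58 and 4.46, against 4.13, 3.35 and 3.99 on ERaKO placebo arrays, with no separation.

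The log2 difference of Mki67 was -1.77 ± 0.61 in ERbKO (SE, adjusted p = 1.0) and -1.61 ± 0.47 in WT (adjusted p = 0.255). In ERaKO it was 0.05 ± 0.61 (adjusted p = 0.996). Without WT placebo mouse 1 the difference in WT was -0.98 (adjusted p = 0.168). Leaving out that array also changed the spread that all groups share in the fit, and the same difference of -1.77 in ERbKO then passed the threshold (adjusted p = 0.0261). Mki67 was tested because placebo arrays carried it past the filter, and all ERbKO E2 and WT E2 arrays lay under 4, so the sizes of these differences are not measured. With those arrays set at 4, Mki67 was at least 2.07-fold lower with E2 in ERbKO and at least 2.08-fold lower in WT, or 1.34-fold in WT without placebo mouse 1. A lower signal in a whole aorta can come from fewer cells of a type or from less RNA per cell, and these cannot be told apart here.

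Top2a encodes the topoisomerase that untangles DNA before mitosis. Its ERbKO E2 arrays had 2.75, 2.48 and 2.69, against 4.42, 3.79 and 4.24 on ERbKO placebo arrays, without overlap. Its WT E2 arrays had 2.66, 2.55, 2.76, 2.51 and 2.58, against 6.52, 4.16, 3.66, 3.20 and 2.58 on WT placebo arrays. Its ERaKO E2 arrays had 2.68, 2.53 and 2.57, against 3.39, 2.54 and 3.84 on ERaKO placebo arrays. With E2 all 11 arrays lay between 2.48 and 2.76, under the filter value, and most placebo arrays lay above them.

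The log2 difference of Top2a was -0.66 ± 0.61 in ERaKO, -1.51 ± 0.61 in ERbKO (SE, adjusted p = 1.0) and -1.41 ± 0.47 in WT (adjusted p = 0.374). Without WT placebo mouse 1 the difference in WT was -0.79 (adjusted p = 0.384). With the E2 arrays set at 4, the mean of Top2a was at least 1.11-fold lower in ERbKO and at least 1.02-fold lower in WT. There was no bound in WT without placebo mouse 1. These bounds take placebo arrays under 4 at their values and carry no error. In ERaKO both groups lay under 4. None of these differences has a measured size. Top2a has 3 probe sets, of which 1 passed the filter. With no filter, another probe set has the highest mean and stands for the gene, and its difference was -0.03 in ERaKO, -0.34 in ERbKO and 0.02 in WT.

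Rrm2, a subunit of the enzyme that makes deoxyribonucleotides, had 4.20, 4.34 and 5.20 on ERbKO E2 arrays, against 5.87, 6.32 and 5.86 on ERbKO placebo arrays, without overlap. Its log2 difference there was -1.44 ± 0.66 (SE, adjusted p = 1.0). In WT it had 5.40, 4.25, 4.96, 4.13 and 3.89 on E2 arrays, against 8.01, 5.43, 5.35, 5.25 and 4.85 on placebo arrays, and the difference was -1.25 ± 0.51 (adjusted p = 0.542). Without WT placebo mouse 1 that difference was -0.69. In ERaKO it had 4.27, 5.46 and 3.03 on E2 arrays, against 4.79, 4.62 and 5.70 on placebo arrays, a difference of -0.79 ± 0.66. Another probe set of Rrm2 gave 0.11 in ERaKO, so the sign there depends on the probe set.

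In ERbKO, 6 of 27 members were lower with E2 without any overlap of the groups (Rrm1, Rrm2, Mki67, Top2a, Cdc20 and Kif11), and 1 was higher (Cdkn1a). The shares over all tested genes were 5.9% lower and 3.92% higher. Top2a and Kif11 passed the filter on 4 placebo arrays and 0 E2 arrays, and Mki67 on 8 and 1. These genes could pass only where they were high, so this count supports nothing by itself either. Another tested probe set of Rrm1 had a difference of 0.07 in ERbKO. Mki67, Top2a, Cdc20 and Kif11 lay under the filter value on all 3 ERbKO E2 arrays. Cdc20, which activates the ubiquitin ligase of anaphase, had 3.73, 3.91 and 3.91 on ERbKO E2 arrays, against 4.81, 4.07 and 4.13 on ERbKO placebo arrays. In ERaKO the 2 members without overlap, both lower with E2, were Cdkn2c and the spindle motor gene Kif11, where the share over all tested genes was 10.9% lower and 3.15% higher. Kif11 lay between 3.50 and 3.76 on ERaKO E2 arrays and between 3.79 and 4.09 on ERaKO placebo arrays, around the filter value. In WT no member separated E2 from placebo, against 1.91% of genes higher and 0.351% lower.

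**Figure D3:**
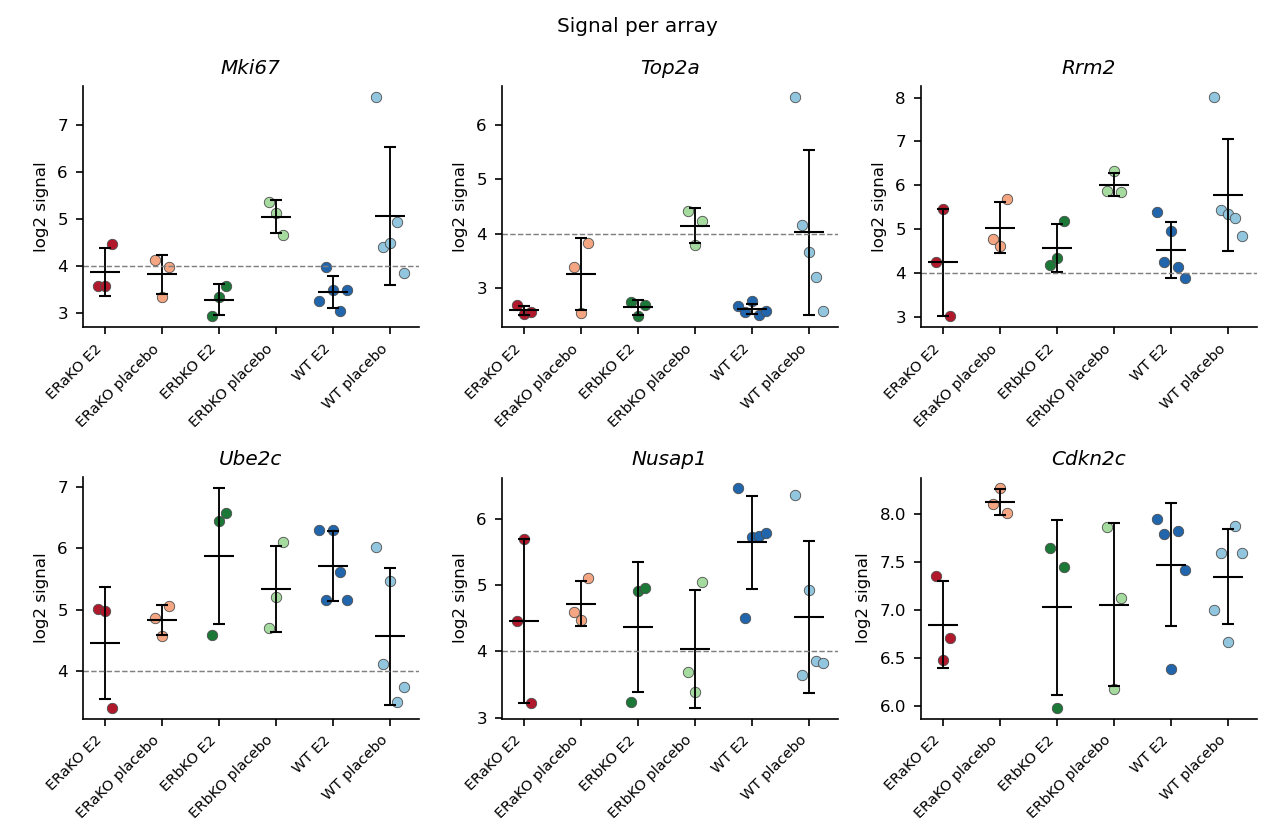
Log2 signal of Mki67, Top2a, Rrm2, Ube2c, Nusap1 and Cdkn2c on each of the 22 arrays by group, with the mean (long line) and SD (bars); the dashed line is the filter value of 4. The highest point of Mki67, Top2a and Rrm2 is WT placebo mouse 1, and the ERbKO groups do not overlap in these 3 genes.

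Markers of lymphocytes and thymocytes varied with the same arrays. Of 15 listed markers, 13 were on the array and 5 passed the filter (Cd3e, Cd8a, Ms4a1, Rag1 and Dntt). Cd3g, Cd2, Cd4, Cd8b1, Cd79a, Cd79b, Rag2 and Ptcra did not pass. The mean log2 signal of these 5 genes lay between 4.06 and 4.46 on ERaKO E2 arrays and between 3.85 and 5.16 on ERaKO placebo arrays. It lay between 3.71 and 3.94 on ERbKO E2 arrays and between 5.03 and 5.66 on ERbKO placebo arrays. In WT it lay between 3.75 and 4.52 with E2 and between 4.15 and 7.01 with placebo, the highest being mouse 1.

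Rag1 had 3.87, 3.89 and 3.98 on ERbKO E2 arrays, against 8.01, 8.05 and 8.53 on ERbKO placebo arrays. Its log2 difference was -4.28 ± 1.10 in ERbKO (SE, adjusted p = 0.411), -1.50 ± 1.10 in ERaKO and -2.32 ± 0.85 in WT (adjusted p = 0.461). With the ERbKO E2 arrays set at 4, Rag1 was at least 18.3-fold lower there. None of these was called, and the difference in WT was -1.46 without placebo mouse 1. Dntt, the terminal transferase of developing lymphocytes, had a difference of -1.94 ± 0.89 in ERbKO and -1.21 ± 0.69 in WT. The difference in WT rests on placebo mouse 1, without which it was -0.26. With those E2 arrays set at 4, Dntt was at least 1.90-fold lower in ERbKO and 1.25-fold in WT. There was no bound in WT without that mouse. The other tested markers differed less. Cd8a had -0.05 in ERaKO, -0.66 in ERbKO and -0.69 in WT. Cd3e, under 4 on all E2 arrays, had -0.15, -0.03 and -0.38, and Ms4a1 had 0.31, -0.04 and 0.32.

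Each of the 27 members was set against the mean of each of 11 marker lists over the 22 arrays, with group means taken off, and the relations given here were picked after their values were seen. Top2a correlated with the lymphocyte and thymocyte markers with r = 0.92 and rho = 0.66, with r = 0.72 without the 2 arrays farthest from the marker median and r = 0.68 without WT placebo mouse 1. Mki67 had r = 0.85 and rho = 0.64, with 0.48 without the 2 farthest arrays and 0.43 without that mouse. Cdc20 had r = 0.78 and Kif11 r = 0.81, and -0.08 and 0.21 without that mouse, so that these 2 rest on 1 array. Skeletal muscle markers, of which Acta1 and Ckm among 8 passed the filter, had r = 0.85 with Mki67, 0.85 with Cdc20, 0.81 with Kif11 and 0.81 with Top2a. Without WT placebo mouse 1 these were 0.27, -0.02, -0.02 and 0.09, so that they rest on that array too. Members and markers share the array and its RNA in each point. The part of these cells in the values of Mki67, Top2a and Rrm2 was not tested, and no r of Rrm2 with these markers is given here.

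The 5 genes most like Top2a over the 22 arrays, by Pearson r after group means were taken off and among all 10260 tested genes, were Cytip (0.91), Dntt (0.89), Myb (0.87), Ptprc (0.86) and Eef1a2 (0.85). None is a member. Cytip and Ptprc are leukocyte genes, Myb is a transcription factor gene of blood cell precursors, and Eef1a2 is an elongation factor gene of muscle and nerve. Without WT placebo mouse 1 their r with Top2a were 0.53 (Cytip), 0.51 (Dntt), 0.48 (Myb), 0.73 (Ptprc) and 0.13 (Eef1a2), and of the 5 only Ptprc was again among the highest 5 genes.

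Mki67 and Top2a correlated with each other with r = 0.84 and rho = 0.42, and with r = 0.33 without WT placebo mouse 1. Cdc20 and Kif11 had r = 0.86 with each other, and 0.13 without that mouse. Their r with Mki67 and Top2a lay between 0.83 and 0.84, and between 0.10 and 0.25 without that mouse. Ube2c and Nusap1 had r = 0.88 and rho = 0.85 with each other, and r = 0.84 without that mouse. Rrm2 had r of 0.72 and 0.75 with Ube2c and Nusap1, and 0.61 and 0.62 without that mouse. With Mki67 and Top2a, Rrm2 had r of 0.58 and 0.72, and of -0.12 and 0.29 without that mouse. Ube2c and Nusap1 had r of 0.33 and 0.35 with Mki67, and of -0.21 and -0.33 without that mouse.

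Ube2c, a ubiquitin-conjugating enzyme gene of mitotic exit, had a difference of the opposite sign to that of Mki67 in WT. It had 6.29, 5.16, 6.30, 5.61 and 5.16 on WT E2 arrays, against 6.02, 4.11, 5.47, 3.50 and 3.74 on WT placebo arrays. The lowest WT E2 arrays lay above 3 of the 5 WT placebo arrays, and the groups overlapped. The log2 difference was 1.14 ± 0.50 in WT (SE, adjusted p = 0.581), 0.53 ± 0.64 in ERbKO and -0.37 ± 0.64 in ERaKO, and none was called.

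Nusap1, a spindle microtubule gene, had 6.46, 4.51, 5.73, 5.75 and 5.79 on WT E2 arrays, against 6.36, 3.64, 4.93, 3.86 and 3.82 on WT placebo arrays. Its log2 difference was 1.12 ± 0.55 in WT (SE), 0.33 ± 0.71 in ERbKO and -0.26 ± 0.71 in ERaKO. WT placebo mouse 1 was the highest of its group for both genes.

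Markers of erythroid cells varied with Ube2c and Nusap1. Of 9 listed markers, 7 were on the array and 4 passed the filter (Alas2, Slc4a1, Epb42 and Trim10), and the globin gene Hba-a1, Rhag and Klf1 did not. The mean log2 signal of the 4 genes lay between 8.12 and 9.29 on WT E2 arrays and between 6.34 and 7.67 on WT placebo arrays, without overlap. It averaged 8.36 with E2 and 7.31 with placebo in ERbKO, with overlap, and 7.29 and 7.18 in ERaKO. Trim10, a gene of red cell development, rose with E2 in WT by 2.19 ± 0.39 (SE, adjusted p = 0.0096). Its difference was 1.85 ± 0.50 in ERbKO (adjusted p = 0.478) and -0.01 ± 0.50 in ERaKO. Slc4a1, which encodes the red cell anion exchanger, had 2.50 ± 0.60 in WT (adjusted p = 0.0911), 1.66 ± 0.78 in ERbKO and 0.09 ± 0.78 in ERaKO. With group means taken off, Ube2c correlated with the mean of these markers with r = 0.84 and rho = 0.89, and Nusap1 with r = 0.78 and rho = 0.83. Without the 2 farthest arrays the r were 0.83 and 0.78, and without WT placebo mouse 1 they were 0.83 and 0.78 as well. The part of red cell precursors in the values of both genes was not tested.

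**Figure D4:**
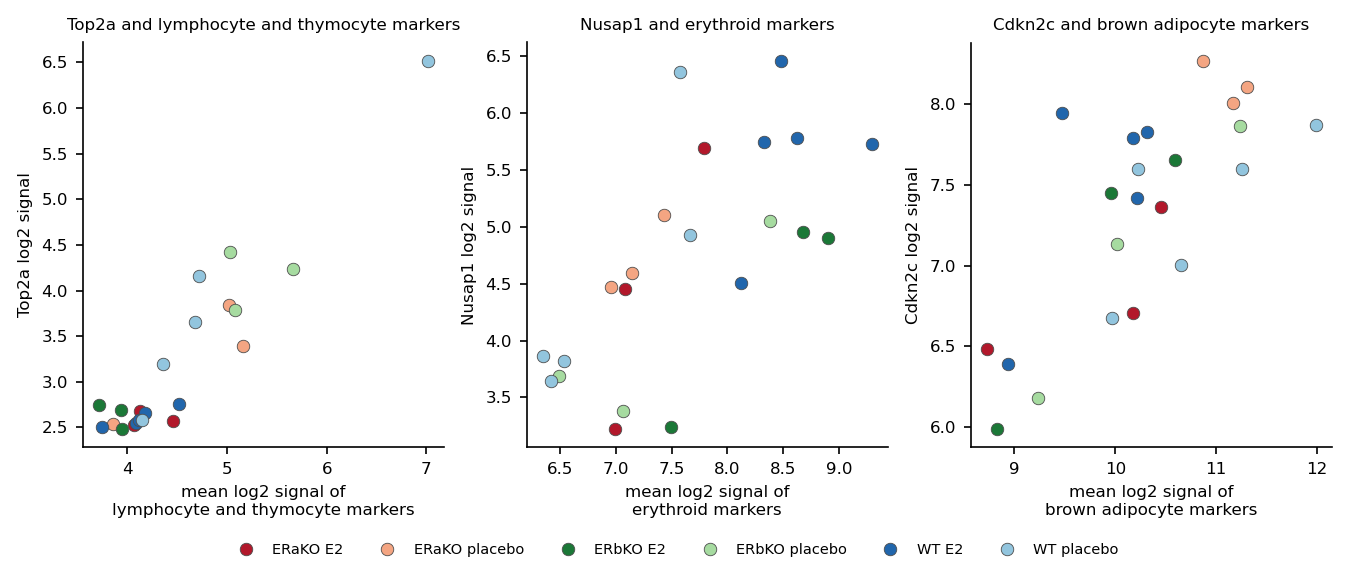
Each point is 1 of the 22 arrays, with its group by colour. Log2 signal of Top2a is plotted against the mean log2 signal of lymphocyte and thymocyte markers (left), Nusap1 against erythroid markers (middle) and Cdkn2c against brown adipocyte markers (right). The point at the upper right of the left panel is WT placebo mouse 1, with 6.52 for Top2a.

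Of the 8 tested G1 regulators none was called in any genotype, and their median log2 difference of E2 minus placebo was 0.08 in ERaKO, -0.08 in ERbKO and -0.32 in WT. Ccnd1, the cyclin D gene through which many growth signals act, had 7.17, 7.63 and 6.57 on ERaKO E2 arrays, against 7.58, 7.56 and 7.99 on ERaKO placebo arrays. It had 5.93, 5.50 and 5.96 on ERbKO E2 arrays, against 7.46, 6.44 and 5.63 on ERbKO placebo arrays. It had 6.99, 6.35, 5.62, 6.94 and 5.94 on WT E2 arrays, against 7.52, 7.03, 6.55, 9.68 and 6.68 on WT placebo arrays. The groups overlapped in each genotype, and WT placebo mouse 4 lay over 2 log2 units above the next array of its group.

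The log2 difference of Ccnd1 was -0.59 ± 0.61 in ERaKO, -0.71 ± 0.61 in ERbKO and -1.12 ± 0.47 in WT (SE, adjusted p = 0.566). Without WT placebo mouse 4 the difference in WT was -0.57. It was -0.31 in ERaKO without E2 mouse 3 and -0.24 in ERbKO without placebo mouse 1. Ccnd1 has 3 tested probe sets, with differences in WT between -1.12 and -0.26, and of unlike sign in ERaKO.

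Ccnd2, another cyclin D gene, spanned 9.22 to 11.08 over the 22 arrays. It had 9.85, 11.08 and 10.89 on ERaKO E2 arrays, against 9.69, 10.51 and 10.95 on ERaKO placebo arrays. Its log2 difference was 0.22 ± 0.37 in ERaKO, 0.07 ± 0.37 in ERbKO and 0.13 ± 0.29 in WT (SE), and its 7 probe sets did not have 1 sign in any genotype. Its signal followed the smooth muscle markers, with r = 0.82 over the 22 arrays after group means were taken off, and r = 0.75 without the 2 farthest arrays. Ccnd3, the remaining cyclin D gene, and its partner kinases Cdk4 and Cdk6 had differences between -0.39 and 0.27 in the 3 genotypes. Cdk2 and its cyclin E partners Ccne1 and Ccne2 had differences between -0.55 and 0.48.

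**Figure D5:**
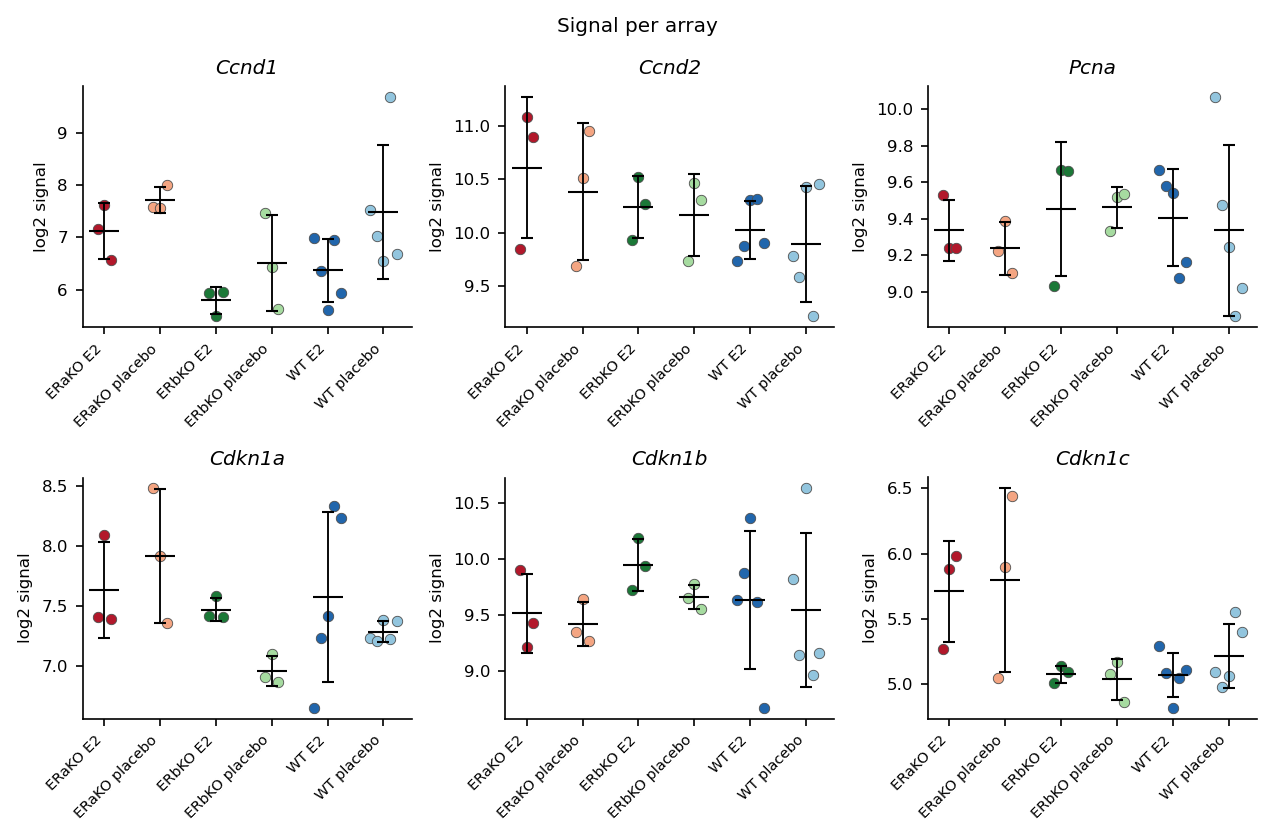
Log2 signal of the cyclin D genes Ccnd1 and Ccnd2, of Pcna and of the CDK inhibitors Cdkn1a, Cdkn1b and Cdkn1c on each of the 22 arrays by group, with the mean (long line) and SD (bars). The Ccnd1 point at 9.68 is WT placebo mouse 4, and the ERbKO groups of Cdkn1a do not overlap.

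CDK inhibitors hold cells in G1. Cdkn2c, an inhibitor of Cdk4 and Cdk6, had 7.36, 6.49 and 6.71 on ERaKO E2 arrays, against 8.11, 8.27 and 8.01 on ERaKO placebo arrays. All 3 E2 arrays were under all 3 placebo arrays. The log2 difference was -1.28 ± 0.47 (SE, adjusted p = 0.657). In the fit with the replicate block Cdkn2c fell in ERaKO with the same difference (adjusted p = 0.0356), and it was the one member called in that fit. In ERbKO the difference was -0.03 ± 0.47 and in WT 0.13 ± 0.37.

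Adipocyte markers varied with Cdkn2c. All 7 brown adipocyte markers passed the filter, and their mean lay between 8.73 and 10.46 on ERaKO E2 arrays, against 10.87 to 11.30 on ERaKO placebo arrays. Of 8 white adipocyte markers, 6 were on the array and 5 passed, Lep not among them. The mean of the 5 lay between 9.27 and 10.43 on ERaKO E2 arrays, against 11.01 to 11.23 on ERaKO placebo arrays. In WT and ERbKO, where Cdkn2c had differences of 0.13 and -0.03, the markers were lower with E2 as well, with overlap. The brown markers averaged 9.82 with E2 and 10.82 with placebo in WT, and 9.79 with E2 and 10.16 with placebo in ERbKO. The white markers averaged 9.87 with E2 and 10.63 with placebo in WT, and 9.91 with E2 and 10.48 with placebo in ERbKO. With group means taken off, Cdkn2c correlated with the brown markers with r = 0.80 and rho = 0.76, and with the white markers with r = 0.79 and rho = 0.74. Without the 2 farthest arrays the r were 0.78 and 0.69. Endothelial markers also varied with Cdkn2c, with r = 0.52 and rho = 0.50, and r = 0.76 without the 2 farthest arrays. Their mean lay between 6.70 and 7.19 on ERaKO E2 arrays, against 7.21 to 7.40 on ERaKO placebo arrays. It averaged 7.38 with E2 and 7.11 with placebo in WT, and 6.84 with E2 and 6.87 with placebo in ERbKO. The part of adipose tissue around the aorta or of endothelial cells in the value of Cdkn2c was not tested.

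The 3 inhibitors of the Cip and Kip family differed little with E2. Cdkn1a, a target of p53, had 7.42, 7.58 and 7.41 on ERbKO E2 arrays, against 6.91, 7.10 and 6.87 on ERbKO placebo arrays, without overlap. Its log2 difference was 0.51 ± 0.34 in ERbKO (SE, adjusted p = 1.0), -0.29 ± 0.34 in ERaKO and 0.29 ± 0.26 in WT. Cdkn1b had differences of 0.10 ± 0.38 in ERaKO, 0.29 ± 0.38 in ERbKO and 0.09 ± 0.30 in WT. Cdkn1c had -0.08 ± 0.26 in ERaKO, 0.04 ± 0.26 in ERbKO and -0.15 ± 0.21 in WT. These differences were under 2 times their SE.

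Of the 9 tested DNA replication genes, by 1 probe set each, Rrm2 alone was past an unadjusted p under 0.05 with E2. The median log2 difference of the 9 was 0.02 in ERaKO, -0.12 in ERbKO and -0.01 in WT. Mcm2 to Mcm7, subunits of the helicase that opens DNA at origins, had differences between -0.39 and 0.35 over the 6 genes and 3 genotypes. Mcm3 had -0.39 ± 0.28 in ERaKO (SE), the lowest of these. Another tested probe set of Mcm3 had 0.36 there, so its sign depends on the probe set. The other tested probe set of Mcm6 had 0.84 in ERaKO (unadjusted p = 0.0275 in limma). Pcna, the sliding clamp of DNA polymerases, had 9.53, 9.24 and 9.24 on ERaKO E2 arrays, against 9.22, 9.39 and 9.10 on ERaKO placebo arrays. Its log2 difference was 0.10 ± 0.25 in ERaKO, -0.01 ± 0.25 in ERbKO and 0.07 ± 0.20 in WT. Rrm1, the large subunit of ribonucleotide reductase, had -0.33 ± 0.25 in ERaKO, where 1 of the 3 E2 arrays, at 5.45, carried it, and the difference without that array was 0.03.

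The difference between the E2 effects of 2 genotypes was tested by interaction terms. These and the knockout comparisons below share the WT arrays. No member was called in either interaction, where 0.0686% of probe sets were called for ERaKO against WT and 0% for ERbKO against WT. For ERaKO against WT, 3 of 27 members were past an unadjusted p under 0.05, which is 11.1% against 3.56% of all tested genes. Mki67 had an interaction of 1.66 ± 0.77 on the log2 scale (SE, adjusted p = 0.9998), and 1.03 without WT placebo mouse 1. Cdkn2c had -1.40 ± 0.60. Ccne2 had 0.95 ± 0.44, and 0.65 without that mouse. The adjusted p of all 3 was 0.9998. Mki67 on WT E2 arrays and Ccne2 on ERaKO placebo arrays lay under 4, so the sizes of their interactions are not measured.

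For ERbKO against WT, 0 of 27 members were past an unadjusted p under 0.05, against 1.31% of all tested genes. The 3 smallest p belonged to Ccne1 with 0.46 ± 0.36 (SE), Mcm6 with -0.39 ± 0.36 and Nusap1 with -0.80 ± 0.89. Without 1 array these were 0.23 for Ccne1 (ERbKO E2 mouse 3), -0.19 for Mcm6 (WT placebo mouse 4) and -0.23 for Nusap1 (ERbKO E2 mouse 1). Mki67 had -0.15, Top2a -0.10 and Rrm2 -0.19 in this interaction. Mki67 and Top2a lay under 4 on all ERbKO E2 and WT E2 arrays. Their values here have no measured size and do not show equal E2 effects.

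The knockouts were also compared with WT within a treatment. No member was called in any of these 4 comparisons, in which 0.0049% of probe sets were called for ERaKO against WT with placebo, 0.0049% for ERbKO against WT with placebo, 0.24% for ERaKO against WT with E2 and 0.0049% for ERbKO against WT with E2. The median of all tested genes was 0.12 in ERaKO against WT with placebo, and 0.00 after quantile normalization, so small differences in that comparison are read against it.

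With placebo, 3 of 27 members (11.1%, against 3.79% of genes) were past an unadjusted p under 0.05 in ERaKO against WT. Ccne2, a cyclin E gene, had 3.86, 3.98 and 3.72 on ERaKO placebo arrays, against 5.86, 5.14, 4.09, 4.12 and 4.02 on WT placebo arrays, without overlap. The log2 difference was -0.79 ± 0.31 (SE, adjusted p = 0.955), and -0.49 without WT placebo mouse 1. With the ERaKO placebo arrays set at 4, Ccne2 was at least 1.56-fold lower, or 1.27-fold without that mouse. Of 10260 tested genes, 42 were lower and 158 higher in ERaKO without overlap. Cdkn2c was the 1 member among those higher. Mki67 had -1.24 ± 0.55 (adjusted p = 0.955), and -0.60 without that mouse. It lay between 3.35 and 4.13 on ERaKO placebo arrays, with a mean of 3.82, and between 3.85 and 7.60 on WT placebo arrays. The ERaKO mean is under the filter value of 4, so the size of this difference is not well measured. Cdkn1c, an imprinted CDK inhibitor gene, had 5.05, 5.90 and 6.44 on ERaKO placebo arrays, against 5.09, 4.98, 5.06, 5.55 and 5.40 on WT placebo arrays, a difference of 0.58 ± 0.24 (adjusted p = 0.955), and 0.26 without ERaKO placebo mouse 3.

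With E2, Cdkn1c had 5.27, 5.88 and 5.98 on ERaKO arrays, against 5.29, 5.08, 4.82, 5.05 and 5.11 on WT arrays. Its log2 difference was 0.64 ± 0.24 (SE, adjusted p = 0.482). With either treatment 2 of the 3 ERaKO arrays were above every WT array, and ERaKO mouse 1 was not. Ccnd3 had 0.57 ± 0.24 (adjusted p = 0.554) and Ube2c had -1.24 ± 0.57 (adjusted p = 0.618) in ERaKO against WT with E2. These 3 of 27 members are 11.1%, against 8.06% of genes. Ube2c had 5.00, 4.97 and 3.41 on ERaKO E2 arrays, under all 5 WT E2 arrays. Of 10260 tested genes, 162 were lower and 252 higher there without overlap. The difference of Ube2c was -0.72 without ERaKO E2 mouse 3, and that of Ccnd3 was 0.38 without ERaKO E2 mouse 2.

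In ERbKO against WT with placebo, 0 of 27 members were past an unadjusted p under 0.05, against 3.02% of genes. The 3 smallest p belonged to Ccnd1 with -0.98 ± 0.55 (SE), Ube2c with 0.77 ± 0.57 and Cdk6 with -0.41 ± 0.33. Ccnd1 had -0.44 without WT placebo mouse 4, and Ube2c 0.39 without ERbKO placebo mouse 3. Cdkn1a was lower in ERbKO without overlap, as were 95 of 10260 tested genes, and no member was among the 175 higher. With E2, Ccne1 had 4.02, 4.89 and 5.16 on ERbKO arrays, against 3.73, 4.07, 4.88, 3.87 and 4.15 on WT arrays, a difference of 0.55 ± 0.25 (adjusted p = 0.860). It was the one member past an unadjusted p under 0.05, 3.7% against 6.18% of genes. Without ERbKO E2 mouse 3 the difference of Ccne1 was 0.32. Nusap1 had -1.28 ± 0.63 there, and -0.71 without ERbKO E2 mouse 1, and Ccnd3 had 0.34 ± 0.24. Ccnd3 was higher in ERbKO without overlap, as were 138 of 10260 tested genes, and no member was among the 447 lower.

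Another 102 cell cycle genes were counted in the same way. Of these, 100 were on the array and 46 passed the filter, with 17 of 23 other G1 regulators, 14 of 30 other replication genes and 15 of 49 other mitotic genes among them. None was called in any of the 9 comparisons. At an unadjusted p under 0.05, 3 of 46 were lower with E2 and 0 higher in ERaKO, 3 lower and 0 higher in ERbKO, and 2 lower and 3 higher in WT. These are 6.52%, 6.52% and 10.9% of the list, against 7.79%, 2.6% and 9.03% of all tested genes. Stmn1, which destabilises microtubules, had a log2 difference of -0.96 ± 0.39 in ERaKO, -1.48 ± 0.39 in ERbKO and -0.90 ± 0.30 in WT (SE), with an adjusted p of 0.661, 0.439 and 0.376. Gmnn, the replication licensing inhibitor geminin, had -1.09 ± 0.49 in ERaKO, the chromatin protein gene Hmgb2 had -1.57 ± 0.48 in ERbKO, and the kinesin gene Kif23 had 0.44 ± 0.16 in WT.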

How the data were processed

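Affymetrix arrays of 22 aortas were analysed, 1 per mouse. The deposited table holds log2 values of 45101 probe sets, made by the authors with GCRMA, per the submitters' processing notes, which give no version. GCRMA corrects background by probe sequence, and signals under 4 are read here as background. Where a whole group lay under it, the size of a difference is not measured. For Mki67, Top2a, Rag1, Dntt and Ccne2 a fold is then given as a bound against 4. Each bound is set by the mean of the brighter group, with its arrays under 4 taken at their values. It carries no error between arrays. Of the probe sets, 34958 carry 1 symbol in the platform annotation, 932 several and 9211 none. The authors' deposited comparison table was not used.

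After 64 control probe sets were left out, 20410 probe sets with a log2 signal over 4 on at least 3 arrays were tested with limma 3.58.1 (lmFit and eBayes, R 4.3.3), in 1 group-means model of the 6 groups. P-values are two-sided and adjusted by Benjamini-Hochberg over all tested probe sets, and a call is an adjusted p under 0.05. A gene with several tested probe sets was represented by that of the highest mean; other probe sets of a gene can match related transcripts. Errors are SE of the fit or SD between arrays.

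The members, lists and tests were chosen with earlier results of these data known. Members given in full are those called, the 3 with the smallest p in each of 9 comparisons, and Mki67, Top2a, Cdk1, Ccnd1, Ccnd2, Ccna2, Pcna, Cdkn1a, Cdkn1b and Cdkn1c. Others were added after their values were seen: Rrm1, Cdc20, Kif11, Ube2c and Nusap1 in E2 comparisons, the untested genes and the markers. Of the 102 other cell cycle genes, the 2 with the smallest p in each E2 comparison are named.

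Replicate numbers were checked by correlating the deviations of same-numbered arrays from their group means. Within a genotype all 11 pairs had r between 0.25 and 0.66, and each array correlated best with its own number. Same-numbered E2 and placebo arrays of a genotype were therefore treated as pairs in the block. The labels give the numbers only as biological replicates, and what same-numbered arrays share is not known. SE, p and counts are from the fit without the block unless the block is named. Across genotypes r lay between -0.34 and 0.39 over 12 pairs, and these were not treated as pairs. Alternatives were no filter, a filter at 5, quantile normalization, median centring, eBayes with trend and robust, a fit of the groups compared alone, the replicate block (pairs within a genotype for E2 effects and interactions, the bare number across genotypes for knockout against WT), the mean of a gene's probe sets, and each array left out. Marker genes and the genes most like Top2a without WT placebo mouse 1 were added after the data were seen. Code was tested on simulated data.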

Additional observations from a re-analysis of the deposited data

Results flagged for a closer look

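In groups of 4 to 10 arrays, which are the 2 WT groups, an array was marked when its gap to the nearest array, as a share of the group's range, passed Dixon's critical value. Of 54 pairs of a tested member and a WT group, 6 were marked, where chance marks about 1 in 20 groups. WT placebo mouse 1 accounted for 3 of them. It had 5.92 for Cdc20, with the next array at 4.05 (gap 0.899 of the range), 5.11 for Mcm2, with the next at 4.16 (0.836), and 8.01 for Rrm2, with the next at 5.43 (0.814). WT E2 mouse 5 had 4.44 for Mcm2, with the next array at 4.17 (0.923), and 5.81 for Rrm1, with the next at 6.39 (0.742). WT placebo mouse 4 had 7.96 for Mcm6, with the next array at 8.82 (0.726), and also the lowest Myh11 signal of all arrays, 12.19.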

How the results depend on the processing

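No member was called in the 9 comparisons under 7 of the 8 other settings. With the replicate block, 1 member was called in ERaKO E2 against placebo, Cdkn2c at -1.28 (adjusted p = 0.0356), and the block changed no other member's call. Leaving out each of the 22 arrays in turn gave 0 to 1 called members in ERbKO, the 1 being Mki67 without WT placebo mouse 1, and 0 in the other 8 comparisons. All probe sets called with E2 numbered 0 to 340 in ERaKO, 2 to 35 in ERbKO and 27 to 347 in WT over the other settings, the highest with the block and 79 in WT without it. For knockout against WT the block joined same-numbered mice of different genotypes, where r lay between -0.34 and 0.39. It called 155 in ERaKO against WT with E2, where 49 were called without it. The block of pairs within a genotype called 29 in the ERaKO interaction, where 14 were called without it. Members' medians moved by less than 0.23, the SD between arrays of the members' mean. The medians lay between -0.09 and 0.06 over the 9 comparisons, so this limit does not show that their sign held. Values near 0 changed sign: Top2a in WT was 0.022 with no filter, by a different probe set, Ccnd2 and Cdkn1b in WT were -0.0031 and -0.069 as means of probe sets, and Pcna in ERbKO was 0.0018 with quantile normalization and 0.013 with median centring. With arrays left out, E2 differences with a change of sign spanned, in ERaKO, -0.57 to 0.034 (Rrm1), -0.25 to 0.21 (Mki67), -0.12 to 0.60 (Ccnd2), -0.10 to 0.25 (Cdkn1b) and -0.46 to 0.24 (Cdkn1c). In ERbKO they spanned -0.14 to 0.23 (Ccnd2), -0.12 to 0.20 (Pcna) and -0.047 to 0.11 (Cdkn1c), and in WT -0.039 to 0.27 (Ccnd2), -0.046 to 0.25 (Pcna) and -0.10 to 0.36 (Cdkn1b). The causes were not tested. Groups of 3 arrays and signals under 4 limit what could be seen in mitotic genes.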
